A study of Mus musculus with 6 samples.

Results

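Enzymes that build and cap mucin-type sugar chains were followed at the level of chromatin accessibility in mouse small intestinal organoids treated with RANKL. The members were chosen by symbol, as protein-coding genes beginning with Galnt, Fut and a digit, St3gal, St6gal, B3gnt, B4galt, Gcnt or Chst, which gave 76 of the 21900 protein-coding genes of GRCm38. Accessibility was measured by bulk ATAC-seq, in which the Tn5 transposase cuts open DNA, as read counts in 55056 windows of 200 bp. A gene's value is the sum of counts in windows to which one of its ends was the closest end of any protein-coding gene, up to 50 kb away. At least 1 window fell to 68 of the 76 genes, and 55 of them held enough reads to be tested, among 12472 genes tested in all. The 76 genes drew 238 windows, of which 111 were deep enough to be tested singly.

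All 6 libraries came from organoids of the line26 wild type, grown from 1 female mouse that carries GFP and the diphtheria toxin receptor at 1 allele of Lgr5 (Lgr5GFPDTR/+). The RANKL group (n = 3) was given recombinant mouse RANKL, a TNF family cytokine, at 100 ng/ml for 6 days. Before that these organoids spent 3 days with CHIR99021 (3 µM) and valproic acid (1.5 mM), then 1 day in ENR medium, named for its EGF, NOGGIN and R-SPONDIN1. The control group (n = 3) was grown in ENR medium and taken at day 6. Whether the controls had the CHIR99021 and valproic acid step is not given in the sources used here (their column names begin with CVENR, which no label explains), so an effect of that step and an effect of RANKL cannot be told apart if they did not. Libraries 1 to 3 of each group carry experiment numbers, and since all are cultures of 1 line, the p-values measure the spread between cultures and not between mice. The question set by the design is how chromatin changes when organoids are driven by RANKL toward microfold (M) cells, the antigen-sampling cells over gut lymphoid tissue.

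Mucin-type O-glycosylation starts when a GalNAc-transferase (the Galnt family) puts N-acetylgalactosamine on a serine or threonine. The chain is then made into a core, branched by the Gcnt enzymes, lengthened with N-acetylglucosamine by B3gnt and galactose by B4galt enzymes, and finished with fucose (Fut), sialic acid (St3gal, St6gal and St6galnac) or sulfate (Chst). Such chains make up most of the mass of intestinal mucus and coat the apical surface, and the terminal sugars differ between gut cell types: mouse M cells are recognised by a lectin that binds α1,2-linked fucose, and goblet cells carry sialylated and sulfated mucin. Several of these enzymes also act on N-glycans, glycolipids or proteoglycans.

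The windows at the transcription starts of 3 members show the contrasts found within the families, and their sequence upstream of the start is given here for that reason. Chst8 had a start window called higher with RANKL, B3gnt5 had a start window called lower, and B3gntl1, whose start window held 132 ± 20.5 CPM (read counts scaled to a common library total, CPM) without RANKL and 128 ± 27.6 CPM with it (SD, n = 3 each), was not called. Each is written 5′ to 3′ along the gene, from RefSeq (GRCm38.p6), and capitals mark the bases inside the counted 200-bp window. The Chst8 stretch is chr7:34812712-34812961 on the minus strand, that of B3gnt5 is chr16:19759984-19760191 on the plus strand, and that of B3gntl1 is chr11:121673161-121673401 on the minus strand.
Chst8: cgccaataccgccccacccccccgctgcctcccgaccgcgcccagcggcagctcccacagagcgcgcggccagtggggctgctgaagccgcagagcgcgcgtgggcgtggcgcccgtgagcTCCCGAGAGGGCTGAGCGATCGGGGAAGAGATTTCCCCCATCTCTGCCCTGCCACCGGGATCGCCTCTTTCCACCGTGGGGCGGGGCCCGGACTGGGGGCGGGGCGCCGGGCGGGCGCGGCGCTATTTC
B3gnt5: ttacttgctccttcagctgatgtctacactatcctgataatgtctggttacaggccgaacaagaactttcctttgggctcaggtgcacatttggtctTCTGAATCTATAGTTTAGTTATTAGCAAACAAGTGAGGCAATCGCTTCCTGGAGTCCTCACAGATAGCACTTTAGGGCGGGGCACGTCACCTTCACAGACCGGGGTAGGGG
B3gntl1: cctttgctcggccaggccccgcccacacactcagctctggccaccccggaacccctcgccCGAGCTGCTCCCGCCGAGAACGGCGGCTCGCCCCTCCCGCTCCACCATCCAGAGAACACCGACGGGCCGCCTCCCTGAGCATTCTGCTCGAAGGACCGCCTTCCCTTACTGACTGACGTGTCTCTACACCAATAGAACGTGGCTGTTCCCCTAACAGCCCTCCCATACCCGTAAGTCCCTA
Over the 300 bases from 250 before to 50 after the start, the Chst8 promoter was 75% G or C with 38 CpG pairs, that of B3gnt5 was 53.3% with 9, and that of B3gntl1 was 65% with 24. RefSeq listed 76 such promoters for 58 of the 76 members, with a median of 61.8% G or C and 18 CpG pairs, against 56.3% and 13 over all 21263 promoters. The kB consensus motif of NF-kB, searched on both strands, was found in Chst8 and B3gntl1 and not in B3gnt5. In Chst8 the match lay outside the counted window, and in B3gntl1 inside it. The kB motif was held by 20 of the 76 member promoters and by 23% of all promoters. The Ets-type core GAGGAA was found in B3gnt5, downstream of the stretch printed here, in 26 of 76 member promoters and in 27.4% of all. None of the 3 promoters held ATTGAT (ONECUT), CAAAGTCCA (HNF4), TTTATNG (CDX), TGANTCA (AP-1) or ATCAAAG (TCF), which were present in 6.54%, 0.451%, 9.58%, 6.99% and 3.22% of all promoters. These are matches of letters on either strand and mark no bound site.

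Of the 55 glycosylation genes tested, 9 were lower and 3 higher with RANKL when edgeR's p-values were adjusted over all genes at 0.05, and 43 were not called. Over all genes tested, 8.52% were called lower and 6.95% higher. The median log2 fold change of the 55 genes was -0.09, against 0.01 over all genes, and 35 of the 55 values were negative. In 13 genes all RANKL libraries lay below all controls and in 6 all lay above, where 16.2% and 14.3% of all tested genes did so. Taking all windows of the members together, they held 0.417% to 0.429% of the counts of each control library and 0.373% to 0.399% of the counts of each RANKL library, so the groups did not overlap in that share. In whole organoids, a smaller share of cells in which a region is open and a less open region in each cell cannot be told apart.

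The lower genes were Galntl6, Galnt7, Galnt4 and Galnt5 at the initiation step, B3gnt5 and B3gnt3 among the chain-extending enzymes, and Fut8, St3gal6 and Chst2 among those that add terminal or core groups. St6gal1, Fut9 and St6galnac3 were higher. Their controls alone were too shallow to pass the depth filter, which these genes passed through their RANKL libraries. Chst2, Galnt4, Galnt7 and St6galnac3 were called in every alternative processing that gave them a value, whereas 2 or more alternatives ended the call of B3gnt3, Fut8, Fut9, Galnt5, St3gal6 and St6gal1. Under DESeq2 the count was 5 lower, under 2-kb windows with an intensity-dependent scaling it was 10 lower and 8 higher, and without control replicate 2 a single gene was called higher.

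**Figure D1:**
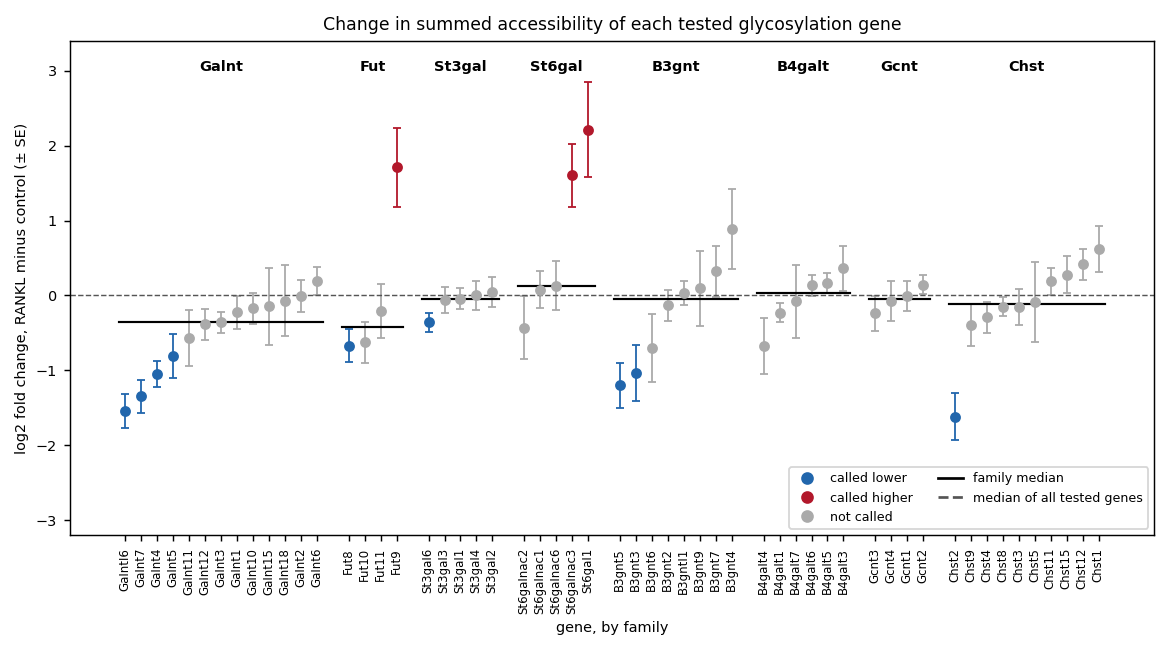
Change at each of the 55 tested glycosylation genes. The vertical axis is the log2 fold change of the summed counts (RANKL minus control, points) with its SE (bars); genes are grouped by family along the horizontal axis and ordered by their value. Black lines are family medians (-0.36 for Galnt, 0.03 for B4galt), the dashed line is the median of all tested genes (0.01), and 9 genes are called lower (blue) and 3 higher (red).

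The libraries held 322173 to 976881 counts in all windows, and 3 counts were worth 3.92 to 11.7 CPM in gene sums, so genes with a single shallow window could show large changes only. Epithelial markers were open in every library, with summed CPM of 1473 to 1538 in control and 1270 to 1398 in RANKL libraries, and Krt18 was the only 1 of 10 tested that was called (lower). M cell markers were called higher in 5 of 9 tested genes (609 to 665 CPM in control, 877 to 1145 CPM in RANKL), where 6.95% of all genes were. Of the called ones, Sox8, Msln and Marcksl1 had controls too shallow to pass the depth filter alone. They passed it through their RANKL libraries and had little room to be called lower. Tnfaip2 (log2 0.85), Anxa5 (0.32), Ccl20 (0.06) and Tnfrsf11b (-0.15) were not called. Spib, Gp2 and Ccl9 were too shallow to test. Goblet markers were called lower in 3 of 10 (Atoh1, Retnlb and Spink4), against 8.52% of all genes. The summed goblet level was 929 to 1068 CPM in control and 728 to 873 CPM in RANKL libraries, and Foxa3 had no window. Uncalled goblet markers with a positive log2 fold change were Tff3 (0.57, without overlap), Clca1 (0.36), Creb3l1 (0.16) and Fcgbp (0.10). Enterocyte markers were called lower in 3 of 8 (926 to 970 CPM against 733 to 804 CPM), where 8.52% of all genes were. Anpep (log2 0.46, without overlap) and Apoa1 (0.17) were positive and uncalled. Apoa4, which was not tested, had 8.46 to 15.7 CPM in control and 19.5 to 68.1 CPM in RANKL libraries. Of the immune markers Cd3e, Cd79a, Lyz2 and Cd68 had no window and the summed level was 70.6 to 94.0 CPM in control and 66.3 to 105.5 CPM in RANKL libraries. Neither of 2 immune genes tested was called by edgeR (0 at an unadjusted p under 0.05, 0 under DESeq2). Pdgfrb among 5 tested mesenchymal genes and Cdh5 among 3 tested endothelial genes were called higher, against 6.95% of all genes. The controls of both were too shallow to pass the depth filter alone. Summed levels were 217 to 286 and 154 to 216 CPM in control and 246 to 317 and 144 to 203 CPM in RANKL libraries. Tek (log2 -0.44), Pdgfra (-0.26) and Acta2 (-0.06) were negative and uncalled. Dcn (0.12), Pecam1 (0.08) and Col1a1 (0.03) were positive and uncalled. Among untested genes, all RANKL libraries lay below all controls at Vim and Emcn and above them at Kdr. The part of these cell type changes in the changes at glycosylation genes was not tested.

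At the GalNAc-transferases, which start the chains, 4 of 13 tested genes were lower, none was higher (0 also at an unadjusted p under 0.05 and under DESeq2), and 12 of 13 log2 fold changes were negative with a median of -0.36. All genes gave 8.52% lower and a median of 0.01. The family has 19 genes, of which 18 had a window; Galntl5 had none, and Galnt9, Galnt13, Galnt14, Galnt16 and Galnt17 were too shallow to test. The part in this of the 3 of 10 goblet and 3 of 8 enterocyte markers that were also called lower (above) was not tested.

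Galnt4 and Galnt7 encode enzymes that prefer peptides already carrying GalNAc, so they add to chains begun by other members. Galnt4 (chr10:99108135-99113247) had 188.9, 198.7 and 196.6 CPM in control libraries 1, 2 and 3 and 74.1, 98.1 and 101.0 CPM in RANKL libraries. The groups were far apart and the controls were close to each other, with a log2 fold change of -1.05 ± 0.17 (SE; adjusted p = 2.492e-07). Each of its 3 windows was called lower, at 1125, 14531 and 19699 bp outside the gene (log2 -1.23, -0.86 and -0.78), and all 3 lie within the body of the neighbouring gene Poc1b. When windows were given to the nearest gene body, which is Poc1b for these 3, none was left for Galnt4, so its assignment rests on the nearest gene end. The window at 1125 bp was called in all 14 alternatives, while the call at 14531 bp was lost in 7 and that at 19699 bp in 8.

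Galnt7 (chr8:57523825-57653055) had 131.1, 145.1 and 111.1 CPM in control and 42.9, 38.2 and 64.2 CPM in RANKL libraries. RANKL values were thus below control in every pairing of libraries, at -1.34 ± 0.22 on the log2 scale (adjusted p = 2.221e-07). Galntl6, its neighbour on the chromosome (chr8:57772489-58912531), belongs to the family by sequence, and had 117.0, 175.2 and 96.9 CPM in control against 46.8, 68.1 and 32.1 CPM in RANKL libraries. This was the largest fall among the family members tested, -1.54 ± 0.23 (adjusted p = 3.982e-09). The 2 genes lie side by side, and the changed windows were in Galnt7 and in the gap between them. A window 37503 bp inside Galnt7 had 48.7, 60.5 and 53.8 CPM in control and 0, 11.5 and 26.2 CPM in RANKL libraries (log2 -1.74 ± 0.38, adjusted p = 8.549e-05), which is -2.96 without RANKL replicate 3. One 495 bp outside the end of Galnt7 at which transcription starts had 44.4, 28.9 and 39.6 CPM in control and 24.4, 0 and 11.5 CPM in RANKL libraries (log2 -1.75 ± 0.47, adjusted p = 0.002637). This second call was lost when control replicate 1 or RANKL replicate 2 was left out (adjusted p = 0.06003 and 0.06594), and its adjusted p ranged from 1.316e-05 to 0.06594 over 14 alternatives.

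The changed window of Galntl6 lies 46965 bp outside the gene, on the side of Galnt7, and had 31.5, 42.1 and 28.3 CPM in control and 0, 11.5 and 4.92 CPM in RANKL libraries (log2 -2.53 ± 0.56, adjusted p = 0.0001392). It was called in all 14 alternatives. Giving windows to the nearest gene body within 50 kb left the sum of Galntl6 uncalled (log2 -0.25, adjusted p = 0.3528). Its adjusted p ranged from 8.253e-10 to 0.3528 over 15 alternatives. Under that rule the called window in the gap stays with Galntl6, and windows in its body more than 50 kb from its ends are added. The cause of the lost call was not tested. The 50-kb limit also falls within this locus. A Galnt7 window 49745 bp outside the gene, just within the limit, had 14, 20 and 2 counts in control and 3, 2 and 4 in RANKL libraries, and a window in its body at 50716 bp from the nearer end, just beyond it, had 96, 89 and 40 counts in control and 27, 20 and 60 in RANKL libraries and was called lower (log2 -0.48, adjusted p = 0.04972).

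**Figure D2:**
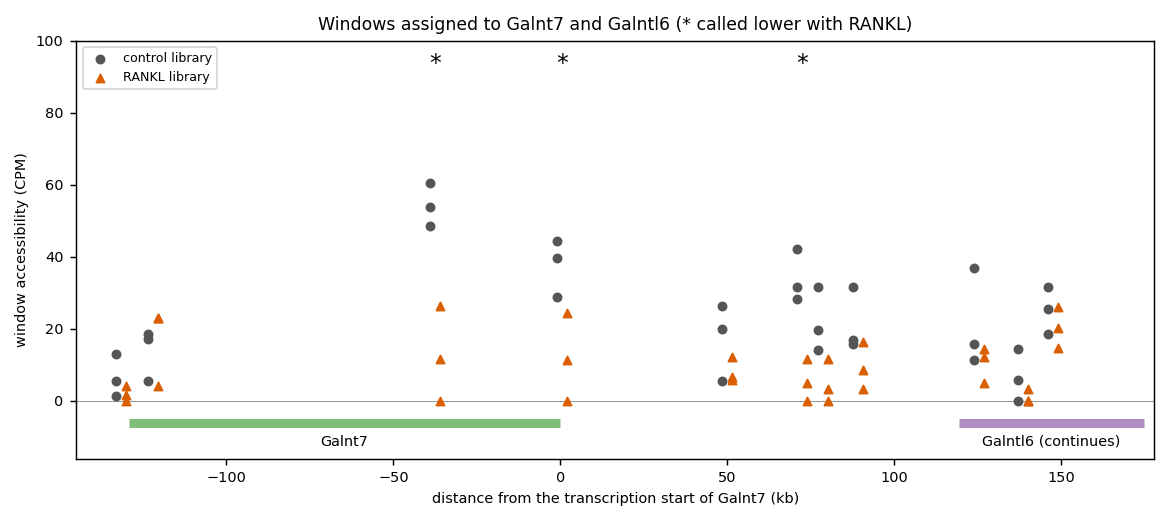
Accessibility of the windows assigned to Galnt7 and Galntl6, by library. The horizontal axis is the distance from the transcription start of Galnt7 in kb, the vertical axis is CPM in a 200-bp window, circles are control and triangles RANKL libraries (shifted slightly apart), and bars under the axis are the gene bodies. Stars mark the 3 windows called lower, in Galnt7, at its start and in the gap toward Galntl6, where no RANKL library exceeds 26.2 CPM.

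Galnt5 had a single window, 3761 bp inside the gene, and its sum was 81.7, 54.9 and 54.1 CPM in control and 23.4, 51.8 and 33.6 CPM in RANKL libraries. The closest libraries of the 2 groups were thus nearly level, and the log2 fold change was -0.81 ± 0.30 (adjusted p = 0.044). The call was lost when control replicate 1 was left out (-0.57, adjusted p = 0.3317), when RANKL replicate 1 or 3 was (adjusted p = 0.1382 and 0.1999) and under DESeq2 (adjusted p = 0.1862), over a range of 0.01815 to 0.3317. Galnt3, an initiating transferase of gut epithelium, was the most accessible uncalled gene of the family with 201.5, 239.3 and 262.1 CPM in control and 175.4, 190.8 and 174.4 CPM in RANKL libraries. Its groups did not overlap, at -0.36 ± 0.14 (adjusted p = 0.06621), and without control replicate 1 it was called (adjusted p = 0.04251). Galnt3 was also called lower on 2-kb counts (-0.50, adjusted p = 0.0001602) and with intensity-dependent scaling added (-0.31, adjusted p = 0.02177). Galnt12 had a log2 fold change of -0.38 ± 0.21 (adjusted p = 0.2023). The other tested family members, none of them called, ran from -0.57 (Galnt11) to 0.19 (Galnt6).

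Among enzymes that branch and lengthen the chains, the β1,3-N-acetylglucosaminyltransferases had 2 of 8 tested genes lower, where 8.52% of all genes were, and a median log2 fold change of -0.05. No gene sum was called among 6 B4galt and 4 Gcnt genes (medians 0.03 and -0.04). In those last families 0 sums passed an unadjusted p of 0.05 in edgeR and 0 were called by DESeq2. On 2-kb counts with intensity-dependent scaling, however, the sums of B4galt5 (log2 0.39, adjusted p = 0.002075), B4galt6 (0.32, adjusted p = 0.01939) and Gcnt2 (0.28, adjusted p = 0.03639) were called higher. B3gnt5, which starts the lacto-series of glycolipids, had 95.8, 45.8 and 65.5 CPM in control and 27.3, 16.4 and 39.8 CPM in RANKL libraries, so that the groups were separate but the controls spread widely. The log2 fold change was -1.20 ± 0.31 (adjusted p = 0.001745), and without control replicate 1, the highest library, it was -0.85 and not called (adjusted p = 0.1469; range 0.0004468 to 0.1469). Its start window, printed above, had 55.9, 19.7 and 31.1 CPM in control and 4.07, 8.66 and 26.2 CPM in RANKL libraries, which overlap (log2 -1.16 ± 0.43, adjusted p = 0.03972). That call was lost without RANKL replicate 1 (adjusted p = 0.1604) or 2 (adjusted p = 0.1855), and the value was -2.36 without RANKL replicate 3.

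B3gnt3, the enzyme that extends core 1 chains, had 53.6, 41.8 and 48.4 CPM in control and 19.5, 21.8 and 26.0 CPM in RANKL libraries. The fall was of similar size in all libraries, -1.03 ± 0.37 (adjusted p = 0.04105), but the gene has 1 window, 349 bp inside, and the call was lost when any library was left out (adjusted p from 0.06077 to 0.1685). B3gnt6, which makes core 3 in the gut, had a log2 fold change of -0.70 ± 0.45 (adjusted p = 0.3134) with 0 to 40.9 CPM in RANKL libraries. B3gnt7, which extends keratan sulfate chains, gave 0.32 ± 0.34 (adjusted p = 0.5757), and B3gntl1 gave 0.04 ± 0.16 (adjusted p = 0.9148).

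B4galt1, the main galactosyltransferase of N-acetyllactosamine, showed a change in some of its windows and not in its sum. The sum was 284.7, 286.3 and 290.6 CPM in control and 218.3, 261.7 and 246.3 CPM in RANKL libraries, without overlap but uncalled (-0.23 ± 0.13, adjusted p = 0.2239). A window 14871 bp outside the gene was at 27.2, 27.6 and 39.6 CPM in control and 4.07, 11.5 and 9.83 CPM in RANKL libraries (log2 -1.72 ± 0.54, adjusted p = 0.01126). Another at 20359 bp outside was also lower, at -0.94 ± 0.28 (adjusted p = 0.006498), and both calls were lost without RANKL replicate 3 (adjusted p = 0.06359 and 0.05105). B4galt6, which with B4galt5 makes lactosylceramide, the root of most glycolipids, had 2 windows called higher inside its body. Both passed the depth filter only through their RANKL libraries. Neither had a value under the stricter filter or without RANKL replicate 3. Of its 6 tested windows 2 were negative and uncalled, at 28862 bp inside (log2 -0.43) and 11051 bp outside (-0.81). Its window 11806 bp inside had 11.5, 5.26 and 5.66 CPM in control and 24.4, 31.7 and 47.5 CPM in RANKL libraries (log2 2.22 ± 0.52, adjusted p = 0.0003617). The window 27925 bp inside rose by 2.06 ± 0.51 on the log2 scale (adjusted p = 0.0008475), with 60.6 CPM in RANKL replicate 2, and was not called without that library (1.57, adjusted p = 0.1059). The sum of the 7 windows of B4galt6 was 211.4, 219.6 and 213.7 CPM in control and 210.5, 248.1 and 241.7 CPM in RANKL libraries and was not called (0.13 ± 0.14). B4galt5 had a window called higher 16381 bp inside (1.50 ± 0.58, adjusted p = 0.04763), which only 1 of 10 alternatives called, and a sum at 0.17 ± 0.14.

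The Gcnt enzymes add the β1,6 branch that makes core 2, and Gcnt3, the mucin form, also makes core 4. Gcnt1 had 93.0, 109.8 and 116.8 CPM in control and 74.1, 114.5 and 113.2 CPM in RANKL libraries, which overlapped fully (-0.01 ± 0.20). Gcnt3 was at 84.6, 71.9 and 76.9 CPM in control and 35.1, 65.4 and 81.1 CPM in RANKL libraries, so that RANKL replicate 1 stood low and RANKL replicate 3 reached the controls (-0.24 ± 0.24, adjusted p = 0.5418). Gcnt4 gave -0.07 ± 0.27. Gcnt2, which makes the branched I antigen, had 12 windows and a sum at 0.15 ± 0.13, while a window 15691 bp inside fell from 40.1, 26.3 and 36.8 CPM to 16.3, 11.5 and 8.19 CPM (log2 -1.61 ± 0.49, adjusted p = 0.008762). Without RANKL replicate 3 this window was not called (adjusted p = 0.1072; range 6.02e-05 to 0.1072).

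Fucosyltransferases were shallow. Of 8 genes 7 had a window and 4 could be tested, with 1 lower and 1 higher (8.52% and 6.95% of all genes). Fut8, which puts the core fucose on N-glycans, had 121.2, 109.8 and 94.0 CPM in control and 101.4, 65.4 and 56.6 CPM in RANKL libraries. RANKL replicate 1 lay within the control range, and the call (-0.67 ± 0.22, adjusted p = 0.01968) was lost on leaving out control replicate 1 or 2 (adjusted p = 0.1151 and 0.06007) or RANKL replicate 2 or 3 (adjusted p = 0.07523 and 0.2747), over a range of 0.004231 to 0.4616. The change was carried by a window 42052 bp outside the gene with 67.3, 35.5 and 39.6 CPM in control and 28.5, 2.89 and 14.7 CPM in RANKL libraries (log2 -1.75 ± 0.41, adjusted p = 0.0003527), whose call was lost without control replicate 1 (adjusted p = 0.05488).

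Fut9, an α1,3-fucosyltransferase that makes the Lewis x structure, was among the least open members and rose. It had 15.5, 5.23 and 11.4 CPM in control and 27.3, 57.2 and 22.9 CPM in RANKL libraries, with RANKL replicate 2 far above the others, at 1.71 ± 0.53 (adjusted p = 0.01264). Without RANKL replicate 2 the value was 1.21 and not called (adjusted p = 0.296), nor was it without control replicate 2 (1.31, adjusted p = 0.1451) or under DESeq2 (adjusted p = 0.05323). The most changed window lay 27350 bp outside (2.35 ± 0.63, adjusted p = 0.002396), and an intensity-dependent scaling brought it to 0.81 (adjusted p = 0.4155). Fut10 had a sum of 70.5, 66.7 and 65.5 CPM in control and 46.8, 40.9 and 44.4 CPM in RANKL libraries, without overlap, and was not called (-0.63 ± 0.28, adjusted p = 0.1101). The Fut10 sum was called lower on 2-kb counts (-0.77, adjusted p = 0.004614) and with intensity-dependent scaling added (-0.80, adjusted p = 0.003654). It was also called within 5 kb (-0.99, adjusted p = 0.02641) and within 1 kb (-1.01, adjusted p = 0.0252). Its start window was called lower (-0.87 ± 0.31, adjusted p = 0.02872), though not in 7 of 14 alternatives, among them leaving out any library but RANKL replicate 1.

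Fut1 and Fut2 make the α1,2-linked fucose to which the M cell lectin binds, and each had 1 shallow window. Fut1 held 28, 15 and 6 counts in control and 4, 7 and 13 in RANKL libraries, or 17.1 to 39.5 CPM against 15.6 to 19.9 CPM, and was not tested. The sum of Fut2 was not tested either. At 3558 bp beyond the gene end, its window held 8, 14 and 1 reads in control and 5, 12 and 15 in RANKL libraries. Scaled for depth this was 11.5, 18.4 and 2.83 CPM in control and 20.3, 34.6 and 24.6 CPM in RANKL libraries, without overlap. The window passed the filter for windows and was not called, with a log2 fold change of 1.10 ± 0.52 (edgeR unadjusted p = 0.03411, adjusted p = 0.1227). At this depth the higher RANKL values at Fut2 were not called, and no difference was tested at Fut1. Fut4 was not tested, and Fut7 had no window.

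**Figure D3:**
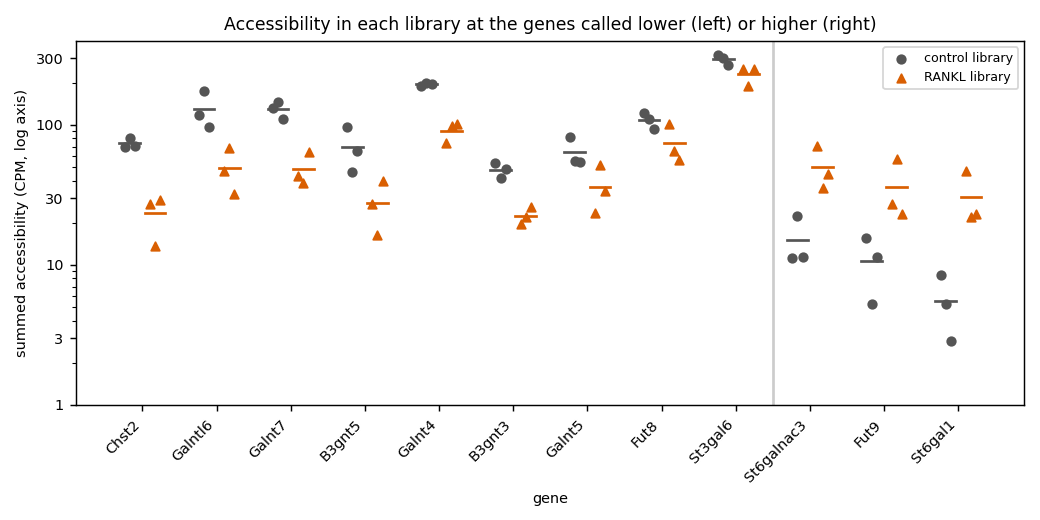
Summed accessibility of the 12 called genes in every library. The vertical axis is CPM on a log scale; circles are control and triangles RANKL libraries (n = 3 each), short lines are group means, and the grey line separates the 9 lower genes from the 3 higher ones. Fut8 is the gene whose groups visibly overlap, with RANKL replicate 1 at 101.4 CPM above control replicate 3 at 94.0 CPM, and the 3 higher genes are at or below 22.2 CPM in every control.

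The St3gal enzymes add sialic acid in α2,3 linkage to galactose. Of 5 tested genes 1 was lower and none was higher (0 also at an unadjusted p under 0.05 and under DESeq2), with a median log2 fold change of -0.04. Over all genes 8.52% were lower and 6.95% higher. St3gal6, which acts on type 2 chains, had 315.7, 299.4 and 267.8 CPM in control and 249.5, 190.8 and 252.4 CPM in RANKL libraries, a small and separate difference of -0.36 ± 0.13 (adjusted p = 0.03945). It was lost in 10 of 16 alternatives, including those that left out control replicate 1 or 2 (adjusted p = 0.1819 and 0.1207) or RANKL replicate 2 (-0.24, adjusted p = 0.2829), and was -0.05 on 2-kb windows with intensity-dependent scaling (adjusted p = 0.7708). A window 32260 bp outside it was nonetheless called in all 14 alternatives, with 74.5, 63.1 and 59.4 CPM in control and 20.3, 28.9 and 37.7 CPM in RANKL libraries (log2 -1.08 ± 0.30, adjusted p = 0.002953).

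St3gal4, another α2,3-sialyltransferase of type 2 chains, had 100.1, 107.2 and 111.1 CPM in control and 70.2, 125.4 and 110.1 CPM in RANKL libraries and a sum that overlapped (0.00 ± 0.20). One window, 10832 bp inside, was lower, at 41.5, 51.3 and 42.4 CPM against 16.3, 28.9 and 14.7 CPM (log2 -1.23 ± 0.39, adjusted p = 0.01162), and another 6004 bp inside was at 1.12 ± 0.44 and not called (adjusted p = 0.05714). Leaving out control replicate 2 or RANKL replicate 3 ended the call of the lower one (adjusted p = 0.07761 and 0.1482). St3gal1, which caps core 1, had the highest uncalled level of its family and a log2 fold change of -0.04 ± 0.14. St3gal5 was too shallow to test.

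The α2,6-sialyltransferases had 2 of 5 tested genes higher and none lower (0 also at an unadjusted p under 0.05 and under DESeq2), where 6.95% of all genes were higher and 8.52% lower. The 2 higher genes, St6gal1 and St6galnac3, passed the depth filter only through their RANKL libraries. They therefore had little room to be called lower. St6gal1, which caps N-glycans and is here covered by a single window 25964 bp inside the gene (chr16:23334187-23334386), had 8.46, 5.23 and 2.85 CPM in control and 46.8, 21.8 and 22.9 CPM in RANKL libraries. These are only 6, 4 and 1 counts in control and 12, 8 and 15 in RANKL libraries, but every RANKL library exceeded every control at 2.21 ± 0.63 (adjusted p = 0.006446). Without RANKL replicate 1 the value was 1.88 and not called (adjusted p = 0.08729), and without control replicate 1, control replicate 2 or RANKL replicate 3 the gene was too shallow to be tested. St6galnac3, which adds sialic acid to the GalNAc of an already sialylated core 1, had 11.3, 22.2 and 11.4 CPM in control and 70.2, 35.4 and 44.4 CPM in RANKL libraries (1.60 ± 0.42, adjusted p = 0.002754). It stayed called in all 15 alternatives with a value. None of its 4 windows was deep enough alone: the window at its start had 6, 12 and 3 counts in control and 4, 2 and 7 in RANKL libraries, and the other 3 held 0, 1 and 0, then 1, 2 and 1, then 1, 2 and 0 counts in control against 2, 4 and 9, then 8, 3 and 2, then 4, 4 and 11 in RANKL libraries. St6galnac1, which makes the sialyl-Tn antigen of goblet mucin, had 71.9, 68.0 and 54.1 CPM in control and 74.1, 57.2 and 76.5 CPM in RANKL libraries, which overlapped (0.08 ± 0.24, adjusted p = 0.8744). The difference between the α2,3 and the α2,6 families was not tested. The called M cell markers moved in the same direction as the higher genes, while Ccl20 (log2 0.06) was nearly level and Tnfrsf11b (-0.15) negative. The part of the M cell markers was not tested.

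Among the sulfotransferases 1 of 10 tested genes was lower, a share near the 8.52% of all genes, none was higher (2 at an unadjusted p under 0.05, 0 under DESeq2; 6.95% of all genes by edgeR), and the median log2 fold change was -0.12. Chst2, a GlcNAc-6-O-sulfotransferase, had the largest fall of all members tested (chr9:95400926-95407270). It had 69.1, 81.1 and 71.2 CPM in control and 27.3, 13.6 and 29.1 CPM in RANKL libraries, a 3.06-fold difference, and the groups were well separated (log2 -1.62 ± 0.32, adjusted p = 1.951e-05). The fall was carried by a distal window, 25298 bp beyond the nearer gene end at chr9:95375429-95375628, with 67.3, 76.3 and 70.7 CPM in control and 24.4, 11.5 and 13.1 CPM in RANKL libraries. Its log2 fold change of -2.23 ± 0.35 (adjusted p = 2.014e-08) had the smallest adjusted p of the 111 member windows, and the call held in all 14 alternatives. Chst4 and Chst5, which sulfate the same sugar in mucins and keratan sulfate, were at -0.29 ± 0.21 and -0.09 ± 0.54 and were not called.

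Chst1, which sulfates the galactose of keratan sulfate, had the largest log2 fold change among the 111 member windows tested. A window 11020 bp outside the gene, at chr2:92588413-92588612, had 1.43, 2.63 and 0 CPM in control and 28.5, 28.9 and 27.9 CPM in RANKL libraries, which were nearly equal to each other. Reads numbered 3 in the controls together and 34 in the RANKL libraries, a ratio of 17.1 after scaling (exact 95% interval 5.37 to 86.9, counting error only). The window was picked for its large change and passed the depth filter only through its RANKL libraries. The interval does not allow for that choice. The fitted log2 fold change was 3.92 ± 0.76 (adjusted p = 7.993e-06), and with intensity-dependent scaling it was 2.18 and not called (adjusted p = 0.0504; range 7.723e-06 to 0.0504). The sum over the 6 windows of Chst1 was 33.8, 39.2 and 39.9 CPM in control and 42.9, 65.4 and 59.7 CPM in RANKL libraries, without overlap and not called (0.62 ± 0.31, adjusted p = 0.167). On 2-kb counts it was called higher, at 0.88 (adjusted p = 0.0001082), and with intensity-dependent scaling added at 0.91 (adjusted p = 9.197e-05).

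Chst8 and Chst9 add sulfate to the 4-position of GalNAc. The start window of Chst8 (chr7:34812641-34812840, its sequence printed above) had 41.5, 34.2 and 70.7 CPM in control and 73.2, 115.4 and 85.2 CPM in RANKL libraries, and all RANKL libraries were higher although control replicate 3 came close. Its log2 fold change of 1.03 ± 0.24 (adjusted p = 0.0002916) was called in all 14 alternatives. The sum over the 12 windows of Chst8 went slightly the other way, at -0.15 ± 0.13 (adjusted p = 0.462), and 5 of its 7 tested windows were negative. Counting only windows within 1 kb gave 0.89 (adjusted p = 0.008331), and 2-kb windows with intensity-dependent scaling gave 0.35 (adjusted p = 0.002845). Chst9 had a window 10051 bp inside at 37.2, 30.3 and 31.1 CPM in control and 8.14, 5.77 and 8.19 CPM in RANKL libraries (log2 -2.11 ± 0.54, adjusted p = 0.001379), called in all 14 alternatives, and a sum of -0.40 ± 0.28 that was not called. In Chst15, which adds a further sulfate to GalNAc-4-sulfate in chondroitin sulfate, a window 7119 bp inside had 5.73, 13.2 and 2.83 CPM in control and 52.9, 28.9 and 32.8 CPM in RANKL libraries (log2 2.14 ± 0.52, adjusted p = 0.0007051). On 2-kb windows this was 0.36 (adjusted p = 0.358; range 0.0001774 to 0.358), and the sum of Chst15 was at 0.28 ± 0.25.

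Single windows therefore showed changes that the gene sums did not. Of the 111 member windows tested, 18 were lower and 8 higher, against 10.0% lower and 10.0% higher over all 21618 windows tested. Every higher window except that of Chst8 passed the depth filter only through its RANKL libraries. The lower windows of Galntl6, Chst9 and Gcnt2, and that of B4galt1 at 14871 bp, passed it only through their controls. All of these had little room to be called in the other direction. With intensity-dependent scaling the split was 17 lower and 4 higher, and under DESeq2 it was 9 lower and 7 higher. The 26 called windows lay in 21 genes, of which 11 had a called sum and 10 did not, and no gene had called windows in both directions. The 10 genes with a called window and an uncalled sum were Fut10, St3gal4, B4galt1, B4galt5, B4galt6, Gcnt2, Chst1, Chst8, Chst9 and Chst15. Conversely, St6galnac3 was the called sum without a called window. On counts over 2 kb with intensity-dependent scaling, 21 of the 26 windows and 9 of the 12 sums were still called, and some of these changes were smaller: the Galnt7 sum was -0.55, its inner window -0.93, the Galntl6 window -1.64, the Galnt4 window at 1125 bp -0.64 and the Chst9 window -1.02.

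**Figure D4:**
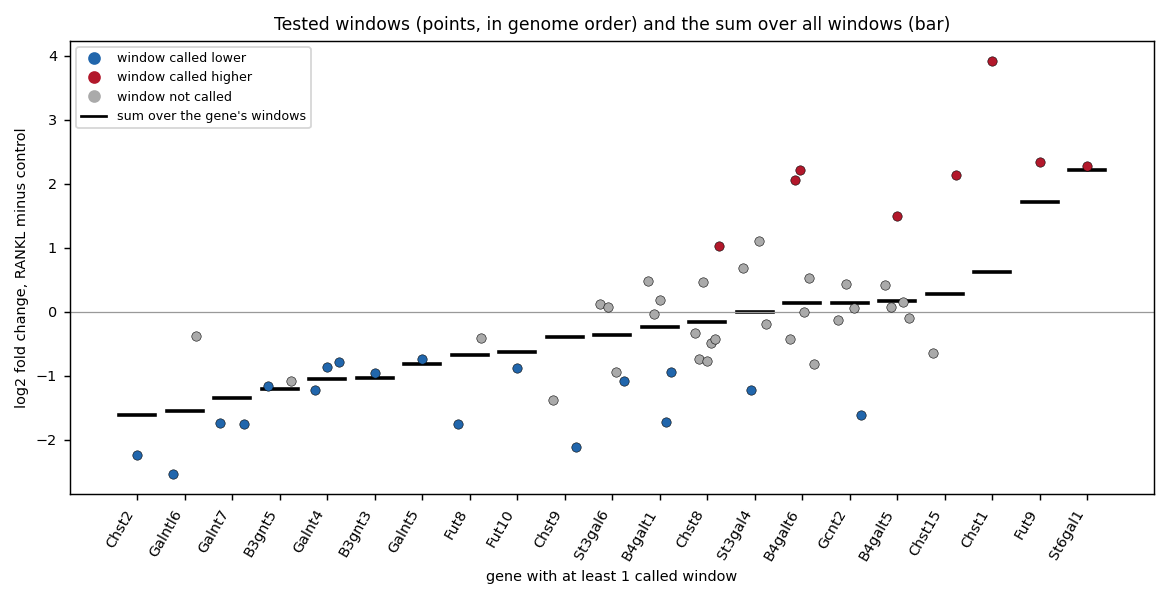
Tested windows of the 21 genes with a called window. Each point is the log2 fold change (RANKL minus control) of a 200-bp window, in genome order within its gene, coloured by its call, and the black bar is the value of the gene's sum. The sums of B4galt6, Chst8 and St3gal4 lie near 0 while single windows reach 2.22, 1.03 and -1.23.

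Most changes at these genes lay away from gene ends. Within 1 kb of a gene end, 1 of 33 tested member windows was higher (Chst8) and 4 were lower (Galnt7, Fut10, B3gnt3 and B3gnt5), where 9.21% of all such windows were higher and 2.99% lower. The median log2 fold change of these member windows was 0.00, against 0.15 for all windows within 1 kb. Beyond 1 kb, 7 of 78 were higher and 14 lower, with a median of -0.21, against 9.73% higher, 11.5% lower and a median of -0.09 for all assigned windows at that distance. The body of their own gene held 14 of the 26 called windows, 6 higher and 8 lower, and 12 lay outside it. No distinction was made between exons, introns and UTRs. Of the 12 called genes 3 rest on a single window (Galnt5, B3gnt3 and St6gal1), as do 8 of the 55 tested.

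Few other genes of the pathway passed the same test. A list of 67 other glycosylation genes, comprising core and other transferases, donor synthesis and transport, and mucins with their companion proteins, had 49 tested genes. Of these 1 was lower and 1 higher, against 8.52% and 6.95% of all genes, with a median log2 fold change of -0.02. The 2 called genes were on the donor side. Cmas, the enzyme that activates sialic acid to the CMP-sialic acid used by all sialyltransferases, had 129.7, 103.3 and 79.8 CPM in control and 39.0, 57.2 and 52.0 CPM in RANKL libraries, without overlap (-1.08 ± 0.23, adjusted p = 0.0001319). Slc26a2, a sulfate transporter that supplies sulfation, had 60.6, 57.5 and 54.1 CPM in control and 152.1, 95.4 and 91.8 CPM in RANKL libraries (0.88 ± 0.22, adjusted p = 0.001734). None of 20 tested core and other transferases was called by edgeR, at an unadjusted p of 0.05 or by DESeq2. None of 8 tested mucin and mucus protein genes was called by edgeR or DESeq2, and 2 of them (Muc1 and Agr2, named here after their values were seen) were lower at an unadjusted p under 0.05. Muc1 had all RANKL libraries below all controls, and Tff3 (log2 0.57) and Muc13 (0.47) had all above. Among all tested genes 16.2% lay below and 14.3% above in this way. Muc5ac and Muc20, which were not tested, also lay above, at few counts. Muc5ac held 5, 1 and 0 counts in control and 3, 9 and 13 in RANKL libraries. Muc20 held 2, 3 and 3 in control and 3, 6 and 13 in RANKL libraries.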

How the data were processed

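The main values were whole-number read counts that the authors deposited for 55056 windows (200 bp each) in 6 ATAC-seq libraries (control and RANKL, n = 3 each, 50000 cells and 38 bp reads, per the labels' protocols). A second table, a score over 2 kb that the authors deposited centred and scaled in each library, was used as an alternative only, after 2-kb counts had been recovered from it to within 0.0074 of whole numbers. Tools in the submitters' processing notes are BWA 0.7.17, fastp 0.20.1, DESeq2 1.34.0, MACS2 2.2.7 and Picard, and the builds there are mm10 (GRCm38). How windows were chosen, and whether reads were shifted for the Tn5 cut or deduplicated, is not given in the sources used here. Undeduplicated reads would make counting intervals too narrow.

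Windows were given to the closest end of a RefSeq protein-coding gene (GRCm38.p6) within 50 kb, which took in 38513 windows (69.95%). Window counts and their sums per gene were tested with edgeR 4.0.16 and limma 3.58.1 in R 4.3.3 (TMM, filterByExpr, robust quasi-likelihood fit, no covariate), adjusted over all genes or windows at a threshold of 0.05. CPM values use the library sizes after the filter. SE is the absolute log2 fold change over the root of F. Total counts of 322173 to 976881 per library set the precision. The tests were first checked on simulated data.

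Alternatives were DESeq2 1.42.0, RLE factors, loess offsets (intensity-dependent scaling), no filter, a filter of 10 counts in every library of a group, the replicate block, leaving out each library, windows within 5 kb or 1 kb, the nearest gene body, 2-kb counts, and 2-kb counts with loess offsets, the last added after seeing the data. The members, lists and alternatives were chosen with earlier results of these data known. Named members are those with a called sum or window, the most accessible uncalled member of each family, and 16 with a known mucosal role. Genes without a test were B4galt2, Chst10, Chst13, Chst7, Fut7, Galntl5, Gcnt7 and St6gal2, which had no window, and 13 below the filter.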

Additional observations from a re-analysis of the deposited data

How the results depend on the processing

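Over 17 alternatives for gene sums and 14 for windows, no called gene or window changed sign. Genes called higher went from 3 to 1 with the stricter filter, 5 on 2-kb counts, 8 on 2-kb counts with loess offsets, 0 within 5 kb, 1 within 1 kb and 1 to 3 when a library was left out. Genes called lower went from 9 to 5 under DESeq2, 4 within 1 kb and 5 to 8 when a library was left out. Windows called higher went from 8 to 4 with loess offsets, 2 with the stricter filter, 14 on 2-kb counts and 4 to 11 when a library was left out. Windows called lower went from 18 to 9 under DESeq2, 29 on 2-kb counts and 9 to 20 when a library was left out. The uncalled Chst8 log2 fold change of -0.15 turned to 0.35 on 2-kb counts with loess offsets and 0.89 within 1 kb; fewer windows enter the second, and the cause of the first was not tested. Experiment numbers were not shown to pair the samples, since deviations of same-numbered libraries correlated at -0.05, 0.01 and -0.03 over gene sums. With the replicate block 5 genes were lower and 3 higher, and 15 windows were lower and 7 higher. Depth kept 13 members with a window, Fut1 and Fut2 among them, out of the test of sums.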
